A study of Arabidopsis thaliana with 6 samples.

Results

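In a SEP3-complemented line of the Arabidopsis sep1sep2sep3 mutant, 115 of 33610 counted genes had a level close to that of sep1sep2 inflorescences while a second line stayed far below it. These genes were chosen by their levels in CPM (the count of a gene per 1000000 counts of its library). In both sep1sep2 libraries and in SEP3 line 1 each gene had at least 1 CPM and at least 4 times the CPM of the higher library labelled sep1sep2sep3, and in SEP3 line 2 it had at most 25% of its line 1 level. A gene with 20 or more counts in line 2 and at most 3 counts in both libraries labelled sep1sep2sep3 was left out, as was the run of genes AT5G07510 to AT5G07560; these clauses removed 1 and 5 of the 121 genes that met the limits. All 115 genes entered the fit, which left out only genes without a count in any library, so none was lost to a filter on low values.

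The 6 RNA-seq libraries were made from poly(A) RNA of inflorescence meristems with flower buds up to stages 10 to 11. They comprise 1 library each of SEP3 line 1 and SEP3 line 2, which are independent lines of the sep1sep2sep3 mutant expressing SEP3, 2 replicates labelled sep1sep2sep3 and 2 replicates of sep1sep2. All 6 carry the sep1 and sep2 mutations, plants were grown in long days, and neither the promoter that drives SEP3 in the lines nor whether replicates came from separate plants is given in the sources used here, so the p-values below measure the spread between these samples, which may be technical. A difference between the lines is a difference between 2 libraries, as each line has only 1. Libraries held 24000063 to 31263376 counts, and 3 counts, taken as the floor of detection, correspond to 0.0960 to 0.125 CPM, a limit that covers counting error only. Since 85.9 to 88.3% of counts between 1 and 20 were even, counts are not independent molecules, and folds against a line with 0 counts are therefore bounded at 6 counts, or 3 read pairs (0.192 to 0.250 CPM).

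As a check of the genotypes, SEP3 itself had 510 CPM in line 1 and 343 CPM in line 2, against 147 and 145 CPM in the libraries labelled sep1sep2sep3 and 130 and 133 CPM in sep1sep2. SEP3 counts were thus not lower in the libraries labelled sep1sep2sep3 than in sep1sep2, and every direction that involves these libraries rests on their labels. SEP2 had 17.3 CPM in line 1 and 112 CPM in line 2, against 15.3 and 11.1 CPM in the libraries labelled sep1sep2sep3 and 79.1 and 43.5 CPM in sep1sep2. Line 1 was therefore near the libraries labelled sep1sep2sep3 for SEP2 and line 2 above both sep1sep2 libraries, and the part of this difference in the results below was not tested. AG, the C-class partner of SEP3, was at 78.2 CPM in line 1 and 58.9 CPM in line 2, against 77.3 and 69.6 CPM in the libraries labelled sep1sep2sep3 and 76.3 and 87.8 CPM in sep1sep2.

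SEPALLATA proteins are MADS-domain transcription factors that form complexes with the other floral homeotic proteins and are needed for the identity of petals, stamens and carpels. Within the stamen, the tapetum is the cell layer that surrounds and feeds the developing pollen. It first expresses a cascade of transcription factors, then the enzymes that make sporopollenin, the polymer of the outer pollen wall, and late in its life phenolamides, flavonol glycosides, lipases, lipid transfer proteins and the proteins of the pollen coat, before it breaks down.

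By annotation, 20 of the 115 genes were placed with lipid enzymes and lipid transfer proteins, 14 with phosphatases and transporters, 14 with ubiquitin ligase and F-box families, 7 each with phenylpropanoid and with sugar and cell wall enzymes, and 5 each with transcription factors and proteases, while 43 were placed in no group. The median level was 6.01 CPM in line 1 and 0.50 CPM in line 2, against 0.165 and 0.0653 CPM in the libraries labelled sep1sep2sep3 and 7.72 and 4.82 CPM in sep1sep2. Summed over the 115 genes, line 1 had 1535 CPM and line 2 had 163 CPM, against 62.8 and 40.5 CPM in the libraries labelled sep1sep2sep3 and 2325 and 1566 CPM in sep1sep2. The sum in line 1 thus lay just under that of the second sep1sep2 replicate, and the 2 sep1sep2 replicates themselves differed. These values chose the genes and are given as a description. In bulk tissue, fewer cells of a type and less RNA per cell cannot be told apart.

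**Figure D1:**
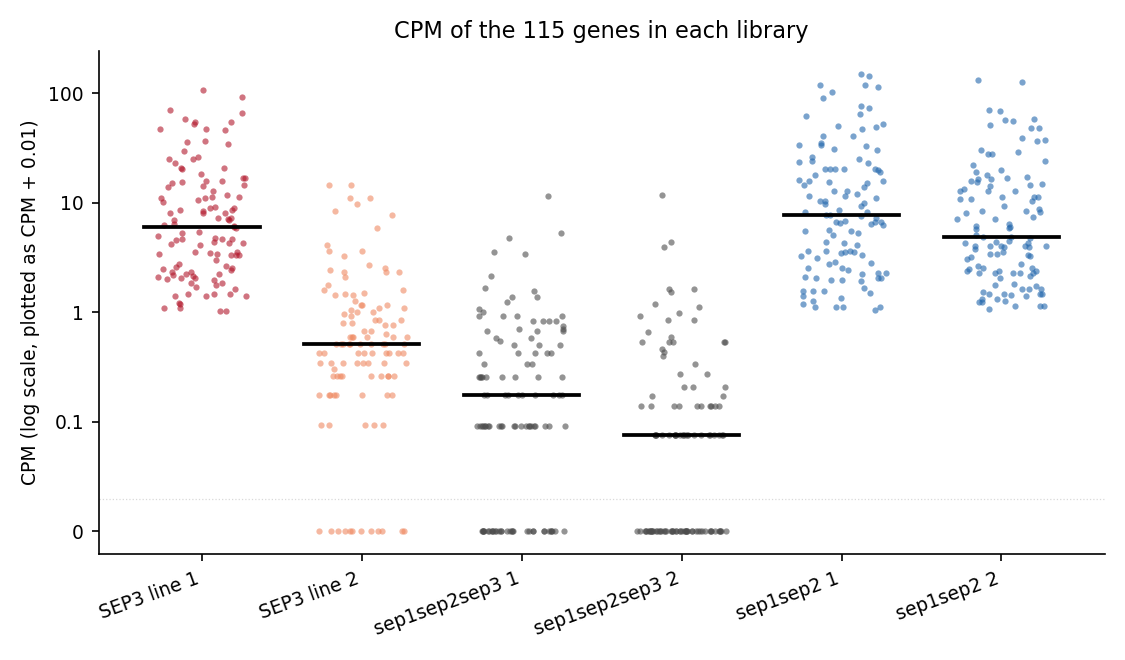
CPM of the 115 genes (points, 1 per gene; log axis of CPM + 0.01, so 0 CPM sits at the bottom) in the 6 libraries, with the median as a black line. The medians are 6.01 CPM in line 1 and 0.50 CPM in line 2, against 0.165 and 0.0653 CPM in the libraries labelled sep1sep2sep3 and 7.72 and 4.82 CPM in sep1sep2.

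The name of the set, genes restored in line 1 only, holds for its upper limit and not for every gene. Line 2 was above both libraries labelled sep1sep2sep3 in 91 of the 115 genes, and at least 2 times the higher of them in 77, of which 69 had more than 3 counts in line 2. Of the 19464 genes with at least 1 CPM in line 1 or a sep1sep2 library, 10507 were above both in line 2. The limits of the set also kept the libraries labelled sep1sep2sep3 low in the 115 genes. Line 2 was at or below the higher library labelled sep1sep2sep3 in the other 24 genes. It had 3 counts or fewer in 17 genes and none in 12 of these. The set therefore holds genes without a detectable level in line 2, genes detected there but not above the libraries labelled sep1sep2sep3, and genes at a partial level. In line 2, 69 of the 115 genes had 10 to 25% of their line 1 level. Among these were AT2G41040 and MES18, which were not above the libraries labelled sep1sep2sep3 in line 2. With the lines exchanged, the same limits were met by 2 genes, AT2G05540 and AT2G33830, while 430 genes reached them in both lines with levels within 4-fold of each other.

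Fits across all 25458 genes with counts were made with the quasi-likelihood test of edgeR and Benjamini-Hochberg adjustment, and a gene was called with a log2 fold change beyond 1 and an adjusted p under 0.05. Since the limits used these contrasts, the calls of the 115 genes are printed without a reading. In the libraries labelled sep1sep2sep3 against sep1sep2, 115 of 115 were called lower, beside 7.30% of all genes. In both lines against the libraries labelled sep1sep2sep3, 107 were called higher, beside 5.74% of all genes. Line 1 alone against these libraries gave 115 (5.46% of all genes) and line 2 alone gave 34 (4.18% of all genes). Line 1 against line 2 gave 55 higher, beside 0.373% of all genes. In the fits of single lines a lone library is assumed to vary like the replicated genotypes.

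By share of listed genes, the enzymes of tapetal phenolamide and flavonol synthesis gave the most complete group. The lists were chosen with earlier results of these data known. Of the 5 genes listed for it, 4 belonged to the set. TSM1 (AT1G67990), a methyltransferase of the phenolamide pathway, had 58.3 CPM in line 1 and 0.417 CPM in line 2, against 0.165 and 0.261 CPM in the libraries labelled sep1sep2sep3 and 119 and 70.7 CPM in sep1sep2. SHT (AT2G19070), the spermidine hydroxycinnamoyl transferase that starts the pathway, had 34.4 CPM in line 1 and 0.333 CPM in line 2, against 0.0823 and 0 CPM in the libraries labelled sep1sep2sep3 and 73.2 and 36.7 CPM in sep1sep2. Line 1 was 140-fold above line 2 for TSM1 and 103-fold for SHT, and line 2 lay within 0.5 CPM of the libraries labelled sep1sep2sep3 for both. CYP98A8 (AT1G74540), a hydroxylase acting on the product of SHT, kept more in line 2, with 16.7 CPM in line 1 and 3.58 CPM in line 2, against 2.14 and 1.63 CPM in the libraries labelled sep1sep2sep3 and 40.6 and 16.4 CPM in sep1sep2. UGT79B6 (AT5G54010), a glycosyltransferase of the flavonol sophorosides of pollen, had 23.3 CPM in line 1 and 2.33 CPM in line 2, against 0.823 and 0 CPM in the libraries labelled sep1sep2sep3 and 20.3 and 21.9 CPM in sep1sep2.

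The gene of this list outside the set is CYP98A9 (AT1G74550), the close relative of CYP98A8, which had 5.47 CPM in line 1 and 2.17 CPM in line 2, against 1.85 and 1.24 CPM in the libraries labelled sep1sep2sep3 and 12.1 and 6.0 CPM in sep1sep2. It rose in line 1 with a log2 fold change of 1.74 (adjusted p = 0.0157 from edgeR's test), a call that was lost without the second library labelled sep1sep2sep3 (1.48, adjusted p = 0.0884), and line 2 was not called (0.41, adjusted p = 0.721). The difference between the lines, 1.32 ± 0.480 (SE) on the log2 scale, did not pass the test (adjusted p = 0.618). Further genes of the set were placed with the wider phenylpropanoid enzymes by their annotation. They are the acyltransferase gene AT4G29250, with 11.0 CPM in line 1 and 0.583 CPM in line 2, UGT72E2, a glucosyltransferase of monolignols, with 6.97 and 0.833 CPM, and CAD3, a cinnamyl alcohol dehydrogenase, with 2.46 and 0.583 CPM. UGT72E2 lay below both libraries labelled sep1sep2sep3 (1.56 and 0.979 CPM) in line 2.

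Lipid enzymes and lipid transfer proteins formed the largest group named by annotation, with 20 genes. LTP12 (AT3G51590), a lipid transfer protein, had 51.8 CPM in line 1 and 0 counts in line 2, against 0.165 and 0.0653 CPM in the libraries labelled sep1sep2sep3 and 119 and 58.2 CPM in sep1sep2. Line 1 was at least 207-fold higher than line 2, bounded at 6 counts. A7 (AT4G28395), a tapetal member of the same protein superfamily and first by line 1 CPM among the 115, differed from LTP12 in line 2, with 107 CPM in line 1 and 14.4 CPM in line 2, against 3.54 and 0.196 CPM in the libraries labelled sep1sep2sep3 and 151 and 131 CPM in sep1sep2. The neighbour of A7, AT4G28397, had 16.9 CPM in line 1 and 1.08 CPM in line 2, against 0.247 and 0 CPM in the libraries labelled sep1sep2sep3 and 23.3 and 27.8 CPM in sep1sep2.

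Among the lipases, EXL4 (AT1G75910) and EXL6 (AT1G75930) encode extracellular lipases of the pollen coat. EXL4 had 15.4 CPM in line 1 and 0.167 CPM in line 2, against 0.329 and 0.0653 CPM in the libraries labelled sep1sep2sep3 and 25.9 and 8.33 CPM in sep1sep2. EXL6 had 4.73 CPM in line 1 and was at 0 in line 2 and in both libraries labelled sep1sep2sep3, with 15.6 and 4.0 CPM in sep1sep2. For both, the replicates of sep1sep2 were more than 3 times apart and line 1 lay between them. The GDSL lipase gene AT1G20130 showed the widest gap between these replicates, with 26.3 CPM in line 1 and 0 counts in line 2, against 0.0823 and 0.131 CPM in the libraries labelled sep1sep2sep3 and 115 and 23.9 CPM in sep1sep2. Its neighbour AT1G20120, also a GDSL lipase gene, had 6.40 CPM in line 1 and 0.333 CPM in line 2, against 0.247 and 0.392 CPM in the libraries labelled sep1sep2sep3 and 25.2 and 10.4 CPM in sep1sep2. AT5G07600, an oleosin family gene, had 1.47 CPM in line 1, 0 counts in line 2, 0 and 0.0653 CPM in the libraries labelled sep1sep2sep3 and 6.37 and 2.29 CPM in sep1sep2, and had the lowest ratio of line 1 to the sep1sep2 mean of the 115 (0.340).

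The very-long-chain fatty acid elongases of the set were KCS15 (AT3G52160) and KCS21 (AT5G49070). KCS15 had 29.5 CPM in line 1 and 2.08 CPM in line 2, against 0.535 and 0.914 CPM in the libraries labelled sep1sep2sep3 and 48.7 and 30.1 CPM in sep1sep2. KCS21 had 4.64 CPM in line 1 and 0.792 CPM in line 2, against 0.411 and 0.849 CPM in the libraries labelled sep1sep2sep3 and 6.81 and 3.51 CPM in sep1sep2, so that line 2 was not above the second of these libraries. CYP86C3 (AT1G13140), a cytochrome P450 of the family of fatty acid hydroxylases, retained more in line 2 and was higher throughout in the libraries labelled sep1sep2sep3, with 47.5 CPM in line 1 and 11.0 CPM in line 2, against 5.27 and 3.95 CPM in these libraries and 64.9 and 47.8 CPM in sep1sep2. The neighbours cPT8 and cPT9, which encode prenyltransferases of long isoprenoid chains, were at 0 in both libraries labelled sep1sep2sep3. In line 1 and line 2, cPT9 had 8.92 and 0.167 CPM and cPT8 had 4.25 and 0 CPM, while sep1sep2 had 16 and 11.3 CPM of cPT9 and 5.30 and 4.49 CPM of cPT8.

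Over the 20 lipid genes the median ratio of line 1 to line 2 was 14.0, beside 8.19 over the 115 genes and 1.00 over the 19464 genes with at least 1 CPM in line 1 or a sep1sep2 library. The limits required a ratio of at least 4 in every gene of the set, so the gap to all genes was fixed by the choice. Line 2 was at 3 counts or fewer in 7 of the 20 and above both libraries labelled sep1sep2sep3 in 9 of them. In these ratios a level under 3 counts is set to 3 counts.

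**Figure D2:**
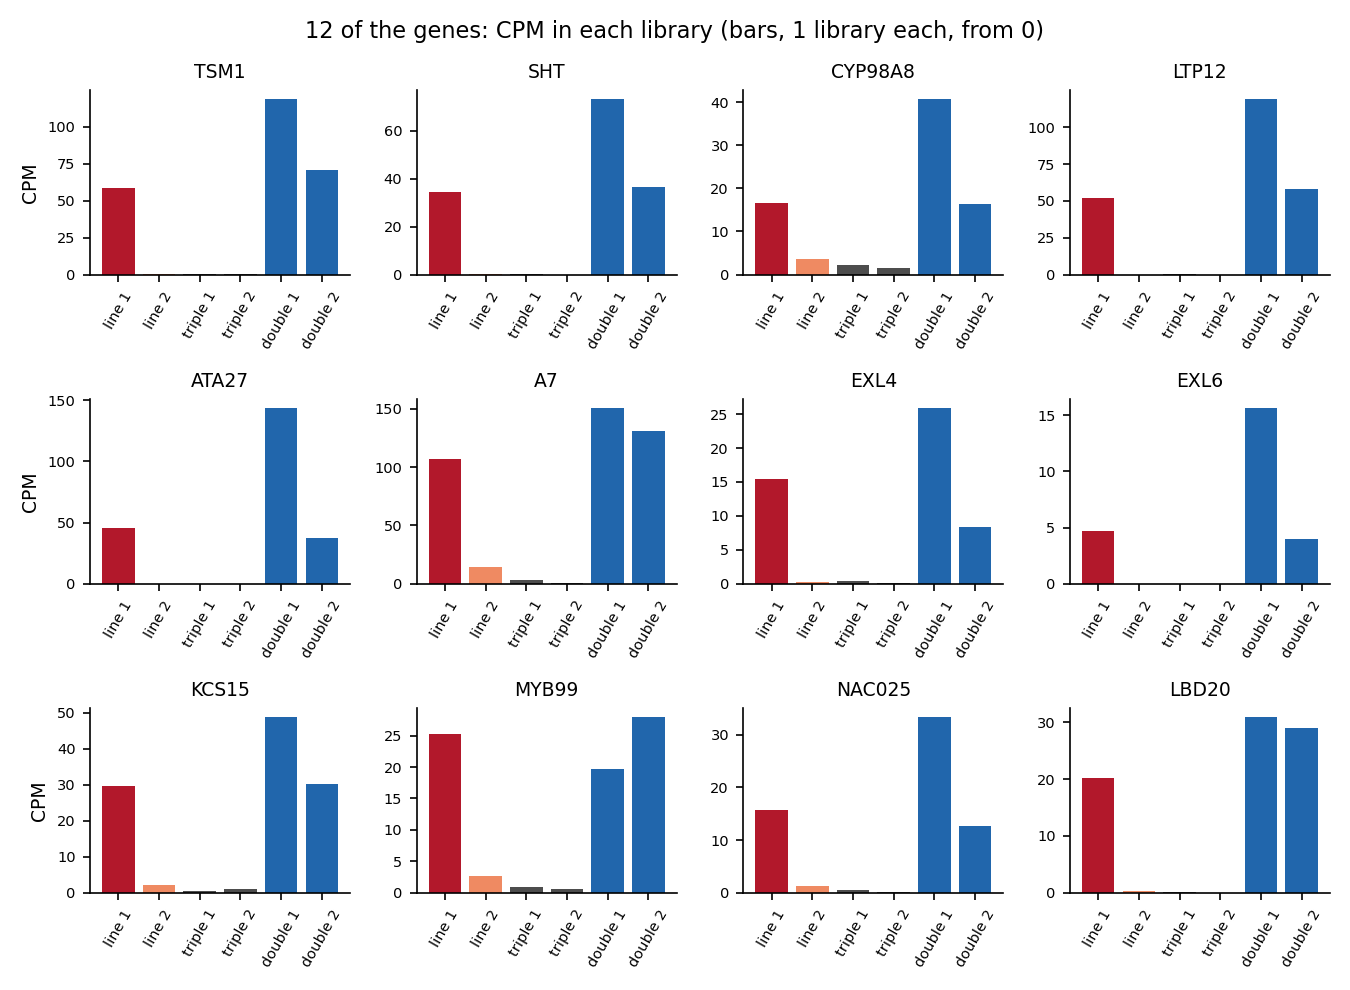
CPM of 12 of the 115 genes (bars, 1 library each, axes from 0 and of different range) in SEP3 line 1, SEP3 line 2, the 2 libraries labelled sep1sep2sep3 (triple 1 and triple 2) and the 2 sep1sep2 libraries (double 1 and double 2). TSM1, SHT, LTP12, ATA27 and EXL6 have no visible bar in line 2, whereas A7 reaches 14.4 CPM and CYP98A8 reaches 3.58 CPM there.

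Sugar and cell wall enzymes numbered 7. ATA27 (AT1G75940), an anther beta-glucosidase, lies next to EXL6 on chromosome 1 and had 45.9 CPM in line 1 and 0 counts in line 2, against 0.0823 and 0.0653 CPM in the libraries labelled sep1sep2sep3 and 144 and 37.7 CPM in sep1sep2. Line 1 was at least 184-fold higher than line 2, by the same bound. A glyoxal oxidase-related gene, AT3G57620, had close replicates instead, with 54.2 CPM in line 1 and 7.67 CPM in line 2, against 1.36 and 0.131 CPM in the libraries labelled sep1sep2sep3 and 52.0 and 51.5 CPM in sep1sep2. The remaining 5 genes of this group had 4.31- to 10.9-fold more CPM in line 1 than in line 2.

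The promoters of TSM1, SHT, LTP12 and ATA27, 4 anther genes with gaps of over 100-fold between the lines, are shown side by side as examples. The limits of the set fixed the pattern these genes share, and AT1G20130 also had a gap of that size. The promoter of AT5G49260 is shown because it held the single match of the set to the strict CArG-box pattern used here. Each is the stretch of 300 bases before the gene start in the RefSeq annotation of TAIR10.1, written 5′ to 3′ on the strand of the gene, with matches to the motifs below in capitals. They lie at chr1:25489155-25489454 (TSM1, plus strand), chr2:8261986-8262285 (SHT, minus strand), chr3:19136676-19136975 (LTP12, minus strand), chr1:28510842-28511141 (ATA27, plus strand) and chr5:19966499-19966798 (AT5G49260, plus strand).
TSM1: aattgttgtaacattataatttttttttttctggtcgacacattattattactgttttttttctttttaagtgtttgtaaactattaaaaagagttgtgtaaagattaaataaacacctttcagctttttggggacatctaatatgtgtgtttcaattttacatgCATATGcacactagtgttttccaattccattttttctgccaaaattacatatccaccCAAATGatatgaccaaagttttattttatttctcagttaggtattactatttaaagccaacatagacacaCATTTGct
SHT: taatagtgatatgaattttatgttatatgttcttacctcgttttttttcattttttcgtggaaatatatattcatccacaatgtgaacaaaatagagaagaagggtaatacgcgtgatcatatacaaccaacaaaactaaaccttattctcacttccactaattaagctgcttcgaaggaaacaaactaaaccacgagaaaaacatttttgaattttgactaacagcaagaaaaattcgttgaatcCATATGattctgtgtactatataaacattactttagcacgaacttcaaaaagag
LTP12: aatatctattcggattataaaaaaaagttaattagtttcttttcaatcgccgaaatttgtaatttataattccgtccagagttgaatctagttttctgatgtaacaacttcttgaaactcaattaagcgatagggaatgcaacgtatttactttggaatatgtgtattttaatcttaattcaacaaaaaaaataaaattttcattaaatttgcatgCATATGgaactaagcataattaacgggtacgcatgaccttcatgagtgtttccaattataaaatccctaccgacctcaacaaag
ATA27: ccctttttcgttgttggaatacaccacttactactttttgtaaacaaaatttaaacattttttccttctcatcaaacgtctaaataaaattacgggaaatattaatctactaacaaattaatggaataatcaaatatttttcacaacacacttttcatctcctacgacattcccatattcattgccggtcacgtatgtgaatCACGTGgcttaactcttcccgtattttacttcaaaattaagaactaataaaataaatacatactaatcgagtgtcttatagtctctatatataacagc
AT5G49260: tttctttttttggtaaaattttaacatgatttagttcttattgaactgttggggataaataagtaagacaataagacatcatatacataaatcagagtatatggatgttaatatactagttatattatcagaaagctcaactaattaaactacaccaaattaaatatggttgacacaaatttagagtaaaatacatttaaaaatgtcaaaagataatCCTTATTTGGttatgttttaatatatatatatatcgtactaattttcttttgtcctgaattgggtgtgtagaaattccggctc

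The motifs were the CArG-box, bound by MADS-domain proteins, CANNTG, the E-box bound by bHLH proteins, and CACGTG, the G-box, which is also a CANNTG. Each was searched on both strands. The CArG-box was searched only in its strict form, CC, then 6 bases of A or T, then GG. Looser forms are missed, among them the site in the KNU promoter that the paper predicts to be strongly bound. Upstream sequence was read for 114 of the 115 genes. A strict CArG-box was found in 1 of them (0.877%), at position -83 from the start of AT5G49260. The share was 2.92% of 27431 protein-coding genes and 1.91% of 419 genes restored in both lines. CANNTG was found in 60 genes (52.6%, beside 61.9% of protein-coding genes and 56.3% of those restored in both lines). CACGTG was found in 6 (5.26%, beside 7.09 and 6.92%). The 6 were AT1G02813, NAC025, ATA27, AT2G03740, ACT12 and AT4G11730. In the promoters printed, CANNTG starts at -135, -78 and -8 in TSM1, at -54 in SHT, at -84 in LTP12 and at -98 in ATA27, the last being a CACGTG. A match is a string of letters and not a bound site, and a motif not found in these windows says nothing of the factor.

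Transcription factors numbered 5. MYB99 (AT5G62320), a MYB protein of the tapetum, had 25.3 CPM in line 1 and 2.67 CPM in line 2, against 0.905 and 0.522 CPM in the libraries labelled sep1sep2sep3 and 19.7 and 27.9 CPM in sep1sep2. LBD20 (AT3G03760), a LOB-domain protein, had 20.2 CPM in line 1 and 0.250 CPM in line 2, against 0.0823 and 0 CPM in the libraries labelled sep1sep2sep3 and 30.9 and 28.9 CPM in sep1sep2. NAC025 (AT1G61110), a NAC-domain protein, had 15.8 CPM in line 1 and 1.17 CPM in line 2, against 0.411 and 0.131 CPM in the libraries labelled sep1sep2sep3 and 33.4 and 12.7 CPM in sep1sep2. Line 2 lay above both libraries labelled sep1sep2sep3 for all 5, which include LBD28 and the B3-domain gene AT5G60140, but at 6 counts for LBD20 the excess is small.

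Acid phosphatases and membrane transporters numbered 14, among them 5 purple acid phosphatases (PAP6, PAP11, PAP14, PAP24 and PAP25). PAP25 had 14.4 CPM in line 1 and 1.17 CPM in line 2, against 0.494 and 0 CPM in the libraries labelled sep1sep2sep3 and 20.5 and 15.5 CPM in sep1sep2. PAP11 had 3.36 CPM in line 1 and 0.0833 CPM in line 2, against 0 CPM in both libraries labelled sep1sep2sep3 and 6.25 and 3.43 CPM in sep1sep2. The transporters carry different cargoes, and PUP6, a purine permease, was the one with the highest CPM, at 47.0 CPM in line 1 and 9.75 CPM in line 2, against 1.07 and 0 CPM in the libraries labelled sep1sep2sep3 and 47.3 and 55.7 CPM in sep1sep2. STP14, of the sugar transporter family, had 15.9 CPM in line 1 and 1.58 CPM in line 2, against 1.36 and 1.53 CPM in the libraries labelled sep1sep2sep3 and 15.2 and 16.4 CPM in sep1sep2, which puts line 2 at the level of the libraries labelled sep1sep2sep3. PHT1;6, a phosphate transporter, had 15.1 CPM in line 1 and 3.58 CPM in line 2, against 0.576 and 0.522 CPM in the libraries labelled sep1sep2sep3 and 20.3 and 14.9 CPM in sep1sep2. BOR4, a borate exporter, had 10.7 CPM in line 1 and 0.583 CPM in line 2, against 0 and 0.196 CPM in the libraries labelled sep1sep2sep3 and 22.8 and 8.73 CPM in sep1sep2.

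A group of another kind were 14 genes for F-box, FBD, kelch, TRAF-like and other proteins of ubiquitin ligases or of the same families. They had low counts, and line 2 lay above both libraries labelled sep1sep2sep3 in all 14. Their median ratio of line 1 to line 2 was 4.70 and the median ratio of the sep1sep2 replicates was 0.994. The MATH-domain gene AT2G42480 had 10.9 CPM in line 1 and 2.33 CPM in line 2, against 0.700 and 0.0653 CPM in the libraries labelled sep1sep2sep3 and 11.5 and 11.3 CPM in sep1sep2. ARI9, a RING-type ubiquitin ligase, had 4.35 CPM in line 1 and 0.50 CPM in line 2, against 0.0823 and 0 CPM in the libraries labelled sep1sep2sep3 and 3.48 and 2.37 CPM in sep1sep2. In AT5G44980, an F-box gene, line 1 exceeded both sep1sep2 replicates, with 3.39 CPM in line 1 and 0.417 CPM in line 2, against 0.0823 and 0 CPM in the libraries labelled sep1sep2sep3 and 2.06 and 1.14 CPM in sep1sep2. Many of these genes belong to large families with similar copies, and reads that mapped to several places were not counted.

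Of the 5 protease genes, AT1G20150, for a subtilisin-like endopeptidase, stood out by its level in line 1. It had 66.4 CPM in line 1 and 5.83 CPM in line 2, against 0.741 and 0 CPM in the libraries labelled sep1sep2sep3 and 15.8 and 17.0 CPM in sep1sep2. Line 1 was 4.05-fold above the mean of sep1sep2, the highest such ratio of the 115, and AT5G44980 (2.12) was the only other gene above 2. This gene overlaps AT1G20140 on the opposite strand, and whether the counting used the strand is not stated. SCPL43, a serine carboxypeptidase-like gene, had 7.16 CPM in line 1 and 1.42 CPM in line 2, against 0.0823 and 0.131 CPM in the libraries labelled sep1sep2sep3 and 4.35 and 3.76 CPM in sep1sep2.

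Other genes with high line 1 CPM fell outside these groups. AT1G02813, annotated with a domain of unknown function, had 92.0 CPM in line 1 and 14.4 CPM in line 2, against 3.37 and 0.261 CPM in the libraries labelled sep1sep2sep3 and 102 and 126 CPM in sep1sep2. AT5G13380, of the GH3 family of acyl acid amido synthetases, had 69.6 CPM in line 1 and 1.25 CPM in line 2, against 0.905 and 0.0653 CPM in the libraries labelled sep1sep2sep3 and 90.2 and 69.1 CPM in sep1sep2. AT2G41040, a methyltransferase family gene, had 55.0 CPM in line 1 and 11.0 CPM in line 2, against 11.5 and 11.7 CPM in the libraries labelled sep1sep2sep3 and 76.1 and 57.1 CPM in sep1sep2. For AT2G41040 line 2 was thus at the level of the libraries labelled sep1sep2sep3, as it was for MES18, a methyl esterase, with 36.7 CPM in line 1 and 4.12 CPM in line 2, against 4.77 and 4.37 CPM in the libraries labelled sep1sep2sep3 and 33.9 and 39.0 CPM in sep1sep2. The small gene AT2G41415 kept a part of its level in line 2, with 35.6 CPM in line 1 and 8.42 CPM in line 2, against 1.65 and 0.196 CPM in the libraries labelled sep1sep2sep3 and 40.3 and 47.7 CPM in sep1sep2. By contrast AT5G16960, a zinc-binding dehydrogenase gene, had 24.8 CPM in line 1 and 0 counts in line 2, against 0.247 and 0 CPM in the libraries labelled sep1sep2sep3 and 62.3 and 20 CPM in sep1sep2, and AT1G68875, without an annotated function, had 20.8 CPM in line 1 and 0.250 CPM in line 2, against 0.0823 and 0 CPM in the libraries labelled sep1sep2sep3 and 50.02 and 14.6 CPM in sep1sep2. ACT12, an actin of reproductive tissue, had 2.56 CPM in line 1 and 0.0833 CPM in line 2, with 0 counts in both libraries labelled sep1sep2sep3 and 4.12 and 2.29 CPM in sep1sep2.

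Set against sep1sep2, line 1 was within 2-fold of the sep1sep2 mean in 103 of the 115 genes, above 2-fold in 2 and under 50% of it in 10. It lay below both sep1sep2 replicates in 46 genes, above both in 28 and between them in 41. Such counts were not made over all genes. The limits of the set also held line 1 and both sep1sep2 libraries above the libraries labelled sep1sep2sep3, so these counts are a description. The median ratio of line 1 to the sep1sep2 mean was 0.857 over the set and 1.31 over the 430 genes restored in both lines. Over the 19464 genes with at least 1 CPM in line 1 or a sep1sep2 library the same median was 1.04. The lowest ratios after AT5G07600 were those of AT1G20120 (0.360) and AT1G20130 (0.379), followed by AT5G28470, a transporter gene (0.421), and AT3G15830, a phosphatidic acid phosphatase-related gene (0.440). After AT1G20150 and AT5G44980, the highest were AT2G22510 (1.91), SCPL43 (1.77) and AT5G24790 (1.65).

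The sep1sep2 replicates, which share a genotype, also differed in these genes. Replicate 1 was above replicate 2 in 83 of the 115 genes and at least 2 times higher in 24, and replicate 2 was at least 2 times higher in none. Of the 19464 genes with at least 1 CPM in line 1 or a sep1sep2 library, replicate 1 was above replicate 2 in 10440. It was at least 2 times higher in 507 of them. The median ratio of replicate 1 to replicate 2 was 1.33 over the set, 0.900 over the 430 genes restored in both lines and 1.02 over the 19464 genes with at least 1 CPM in line 1 or a sep1sep2 library. The size of this ratio went with the level in line 2. In the 17 genes with 3 counts or fewer in line 2 its median was 2.25, with 10 genes at 2 or more; in the 29 with more counts but under 10% of line 1 it was 1.55; and in the 69 genes at 10 to 25% of line 1 it was 1.06, with 27 genes lower in replicate 1. Across the 115 genes, the log2 ratio of line 1 to line 2 and that of the sep1sep2 replicates were correlated, with Pearson's r of 0.531 and Spearman's rho of 0.488. Over the 98 genes with more than 3 counts in line 2 the values were 0.383 and 0.386, and over the 430 genes restored in both lines they were 0.158 and 0.193. The limits of the set held the ratio of line 1 to line 2 to at least 4 in the 115 genes. In the 430 genes it was held within 4-fold, so the values of these sets cannot be set against each other. These are descriptions across genes that share the same 4 libraries, their depths and, in many cases, a tissue, and genes are not independent replicates.

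**Figure D3:**
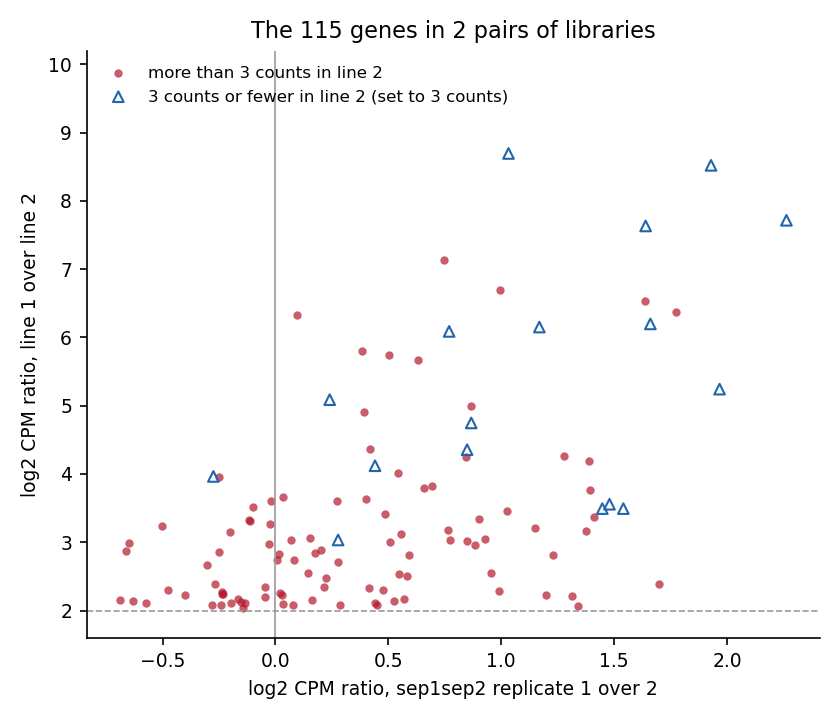
Each point is 1 of the 115 genes, with the log2 CPM ratio of sep1sep2 replicate 1 to replicate 2 on the x axis and that of line 1 to line 2 on the y axis; triangles are the 17 genes with 3 counts or fewer in line 2, with levels under 3 counts set to 3 counts, and the dashed line is the 4-fold limit of the set. The triangles lie mostly to the right, with a median replicate ratio of 2.25, against 1.06 for the 69 genes at 10 to 25% of line 1.

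Replicates of sep1sep2 and those labelled sep1sep2sep3 share only a number, and the counts that follow were not set beside those of all genes. Of the replicates labelled sep1sep2sep3, the first was above the second in 68 genes and below it in 26, and both were at 0 in the other 21. Both were at 3 counts or fewer in 47 genes, so that folds against them are bounded by depth.

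The set was compared with lists of genes for successive steps of anther development. All lists were chosen with earlier results of these data known, so the counts of shared genes are a description. From 112 listed genes, 108 were kept and 11 belonged to the set: 4 of 5 phenolamide and flavonol genes, 4 of 11 tapetal enzymes and lipid transfer proteins (A7, ATA27, KCS15 and KCS21) and 3 of 12 pollen coat genes (EXL4, EXL6 and AT5G07600). A further 4 pollen coat genes, GRP14, GRP18, GRP19 and GRP20, met the limits of the set and were left out by locus, as part of the run AT5G07510 to AT5G07560. None of the 9 meiosis genes, 9 tapetum transcription factors, 7 callose and tetrad genes, 9 sporopollenin genes or 10 carpel and ovule genes belonged to it. In the lists without a gene in the set every gene with counts was tested, each on its own, and no list was tested as a unit.

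All 9 tapetum transcription factors were called higher in line 1 and all 9 in line 2 against the libraries labelled sep1sep2sep3, with median log2 fold changes of 2.88 and 2.72. Between the lines none was called by edgeR (1 had an unadjusted p under 0.05) and none by DESeq2. AMS, a bHLH protein needed for tapetum function, had 243 CPM in line 1 and 185 CPM in line 2, against 22.5 and 17.0 CPM in the libraries labelled sep1sep2sep3 and 162 and 192 CPM in sep1sep2. MS1, the PHD-finger protein that acts last in the cascade, showed the widest gap between the lines, with 25.6 CPM in line 1 and 7.33 CPM in line 2, against 3.87 and 1.31 CPM in the libraries labelled sep1sep2sep3 and 23.8 and 31.4 CPM in sep1sep2. Its difference between the lines, a log2 fold change of 1.79 ± 0.417 (SE), missed the threshold (adjusted p = 0.127 from edgeR's test), and its call in line 2 (log2 fold change of 1.46, adjusted p = 0.0397) was lost without the second library labelled sep1sep2sep3 (0.85, adjusted p = 0.125) and in the fits with DESeq2, its size factors or a filter on low counts.

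All 9 sporopollenin genes were called higher in each line as well, with median log2 fold changes of 3.90 in line 1 and 2.98 in line 2. In all 9 line 1 was above line 2, by 1.43- to 2.46-fold, each with an unadjusted p under 0.05, and 2 passed the threshold of the difference between the lines. CYP703A2, a fatty acid hydroxylase of sporopollenin synthesis, had 154 CPM in line 1 and 62.5 CPM in line 2, against 9.71 and 8.29 CPM in the libraries labelled sep1sep2sep3 and 150 and 185 CPM in sep1sep2, and its log2 fold change of line 1 over line 2 was 1.29 ± 0.186 (SE, adjusted p = 0.00664). ABCG26, the transporter that exports sporopollenin precursors, differed by 1.08 ± 0.195 (SE, adjusted p = 0.0296), a call that was lost with DESeq2's size factors (adjusted p = 0.0783) and with a filter on low counts (adjusted p = 0.120). Of the 7 callose and tetrad genes, 5 were called higher in each line, although the line 2 call of QRT1, a pectin methylesterase, was lost with a filter on low counts (adjusted p = 0.0552) and without the second library labelled sep1sep2sep3 (adjusted p = 0.115). QRT3, a polygalacturonase that separates the pollen of a tetrad, differed between the lines by 1.53 ± 0.232 (SE, adjusted p = 0.00959; 0.0778 with a filter on low counts).

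For the lists that hold genes of the set, only genes that the limits did not choose can be tested. Of the other 7 tapetal enzymes and lipid transfer proteins, 6 were called higher in each line, and ATA20, an anther glycine-rich protein, differed between the lines, with 385 CPM in line 1 and 110 CPM in line 2, against 32.3 and 27.0 CPM in the libraries labelled sep1sep2sep3 and 501 and 542 CPM in sep1sep2 (log2 fold change 1.79 ± 0.175, SE, adjusted p = 0.000409). The 4 glycine-rich protein genes met the limits and were not tested either, and among the other 5 pollen coat genes EXL5, an extracellular lipase gene, was the one called higher, in line 1 (log2 fold change 3.65, adjusted p = 0.000532) and in line 2 (2.38, adjusted p = 0.0258). The line 2 call of EXL5 was lost with a filter on low counts (adjusted p = 0.0529) and without the first library labelled sep1sep2sep3 (adjusted p = 0.0836). EXL1, of the same family, was called lower in line 2 (-1.05, adjusted p = 0.00262), as were 0.790% of all genes, and this call was lost without the second library labelled sep1sep2sep3 (-0.99, adjusted p = 0.016), where it fell short of the log2 threshold. Between the lines none of the 5 was called by edgeR or by DESeq2, and 2 had an unadjusted p under 0.05.

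By median ratio of line 1 to line 2, over listed genes with at least 1 CPM in line 1 or a sep1sep2 library, the lists stood at 1.11 for meiosis (9 genes), 1.32 for tapetum transcription factors (9), 1.56 for callose and tetrad (7), 1.81 for sporopollenin (9), 2.74 for tapetal enzymes and lipid transfer proteins (10), 9.97 for phenolamides and flavonols (5) and 11.8 for the pollen coat (11). The median ratio of the sep1sep2 replicates in the same lists was 1.03, 0.844, 0.970, 0.85, 1.03, 1.99 and 2.79. The lists of other organs stood near 1 between the lines, at 1.10 for carpel and ovule genes (9), 1.22 for petal cutin genes (4) and 0.995 for floral MADS-box genes (10). The 430 genes restored in both lines, held by their limits within 4-fold, had a median of 1.44. That is above the median of the tapetum transcription factors and near that of the callose and tetrad genes. The last 3 of the anther lists include genes of the set, and that of the pollen coat also the 4 glycine-rich protein genes, whose ratios the limits fixed. Among their genes not chosen by the limits, the median log2 fold change of line 1 over line 2 was 0.609 for 7 tapetal enzymes and lipid transfer proteins. It was 0.529 for 5 pollen coat genes and 1.32 for the 1 phenolamide gene, beside 0.849 for sporopollenin. The order of the lists is thus in part made by the choice of the set.

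**Figure D4:**
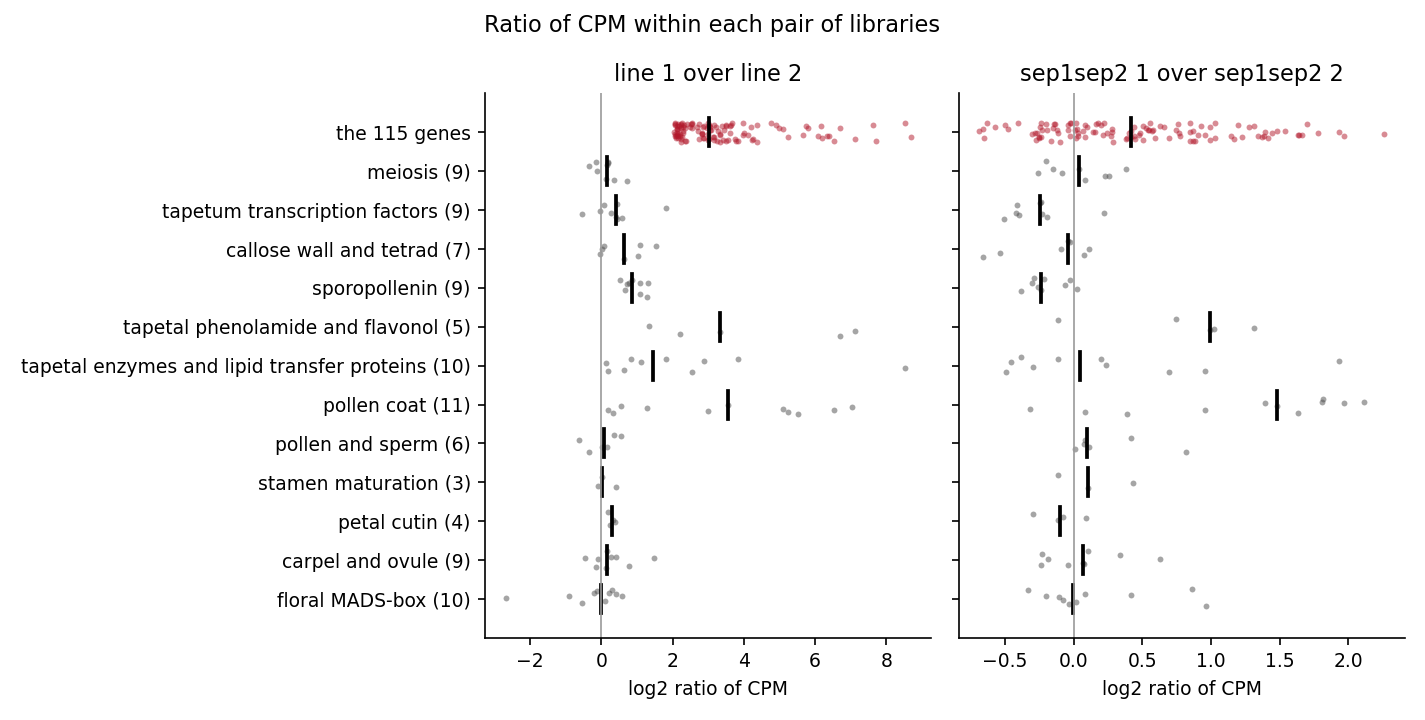
Log2 CPM ratio of line 1 to line 2 (left) and of sep1sep2 replicate 1 to replicate 2 (right) for the 115 genes and for each list (points, genes with at least 1 CPM in line 1 or a sep1sep2 library, genes of the set included; black line, median; number of genes in parentheses). The phenolamide and pollen coat lists have the highest medians, at 9.97 and 11.8 between the lines and 1.99 and 2.79 between the replicates. The limits of the set held the ratio between the lines to at least 4 for 4 of the 5 phenolamide genes and for most pollen coat genes.

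Lists for mature pollen, late stamens and other organs held few calls between the lines. Such calls were rare over all genes too, so lists this short would hold few in any case. Only 6 of the 13 pollen and sperm genes and 3 of the 9 stamen maturation genes had at least 1 CPM in line 1 or a sep1sep2 library. Among the 13 pollen and sperm genes edgeR called none of the 12 tested between the lines, DESeq2 called none and none had an unadjusted p under 0.05. Of the 9 stamen maturation genes, DAD1, MYB21 and MYB24 had no counts in any library, and none of the 6 tested differed between the lines by edgeR, by DESeq2 or at an unadjusted p under 0.05. Among the 9 meiosis genes, 4 were called higher in each line, of which MMD1 lost its line 2 call with DESeq2 (adjusted p = 0.0527) and without the second library labelled sep1sep2sep3 (adjusted p = 0.0602), and none differed between the lines by edgeR, by DESeq2 or at an unadjusted p under 0.05. Of the 10 carpel and ovule genes, 8 were called higher in line 1 and 7 in line 2 against the libraries labelled sep1sep2sep3, and between the lines none was called by edgeR or DESeq2, while 2 had an unadjusted p under 0.05. Of the 10 floral MADS-box genes, SEP2 differed between the lines, with a log2 fold change of line 1 over line 2 of -2.70 ± 0.325 (SE, adjusted p = 0.00193), where 0.0668% of all genes were called lower in line 1.

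On the chromosomes, the 115 genes were spread over chromosome 1 (32), 2 (21), 3 (16), 4 (20) and 5 (26). In 7 places members lay next to each other or with 1 gene between them, which accounts for 16 of the 115. These runs include the GDSL lipase genes AT1G20120, AT1G20130 and AT1G20132, the genes EXL4, EXL6 and ATA27, the pair A7 and AT4G28397 and the pair cPT9 and cPT8. Within such runs the pattern varied, since AT1G20132 had 0.667 CPM in line 2 where AT1G20130 had none. Another annotated gene overlapped 23 of the 115, nearly always on the opposite strand, and as strand use is not stated their counts are less certain. They include SHT, KCS15, CYP98A8, CYP86C3, AT2G41040, MES18 and AT3G57620.

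Genes near the limits show how the set was cut. Just inside the line 2 limit were ISU3, AT5G28470 and PHT1;6, with 24.4, 24 and 23.7% of their line 1 level in line 2, and just outside were SRP3, AT3G50570 and DUR with 25.1, 25.6 and 25.6%. For the fold over the higher library labelled sep1sep2sep3, KCS21 (4.14), AT4G27890 (4.33) and UGT72E2 (4.46) were just inside, and AT4G15460 (3.94), NRT2.6 (3.67) and GDPD6 (3.39) just outside. The lowest of the CPM values in line 1 and sep1sep2 was 1.02 for GGPS2 and ISU3 and 1.03 for AT1G16940, and 0.950 for AT5G21130 and AT1G53360 and 0.910 for AT2G22750, which were left out.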

How the data were processed

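Counts of 6 RNA-seq libraries (24000063 to 31263376 per library) were analysed. The authors mapped the read pairs to TAIR10 with STAR, dropping reads with several places, and deposited whole-number counts per gene from featureCounts for 33610 genes, without normalization. Versions and use of the strand are not given in the sources used here. Of the genes with 1 to 20 counts, 85.9 to 88.3% per library had an even number, so reads are not independent molecules. The authors also deposited 2 comparison tables with log2 fold changes, log2 CPM, test scores, p-values and FDR, which were not used. Wild-type libraries were not analysed here.

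CPM were computed from the counts and library totals. The 25458 genes with a count entered edgeR 4.0.16 (R 4.3.3) with TMM normalization (factors 0.963 to 1.04) and glmQLFTest, all 6 libraries in one fit, with a mean per genotype or with the lines as groups of 1. Scripts were tested on simulated data. Standard errors were derived from the fold change and the F statistic. Alternatives were DESeq2 1.42.0, its size factors, filterByExpr, FDR alone, other limits of the set, each library left out, and a replicate block. Replicates differed by more than sampling noise (chi-square per degree of freedom 12.5 for sep1sep2 and 13.7 for sep1sep2sep3), as did the 2 lines (16.5).

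The 115 genes and all lists were chosen with earlier results of these data known. Genes named are the 20 with the highest line 1 CPM, those in the lists, those nearest the limits, the extremes of the ratio to sep1sep2 and of line 2 CPM, and genes with a sure role; roles were assigned from RefSeq names after the values were seen. A6, GRP16, GRP17 and RALF19 were left out of the lists, as symbol and locus disagreed. Names, positions and promoters come from RefSeq TAIR10.1; the files hold no coordinates.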

Additional observations from a re-analysis of the deposited data

Results flagged for a closer look

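The levels of 5 listed genes that the limits of the set did not choose differed between line 1 and line 2 by edgeR's quasi-likelihood test, a comparison of 2 libraries. On the log2 scale the difference was 1.53 for QRT3, 1.29 for CYP703A2, 1.08 for ABCG26 and 1.79 for ATA20, all higher in line 1, with adjusted p of 0.00959, 0.00664, 0.0296 and 0.000409. SEP2 was the one lower in line 1, with -2.70 on the log2 scale (adjusted p = 0.00193), at 17.3 CPM in line 1 and 112 CPM in line 2.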

How the results depend on the processing

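The set held 106 to 120 genes with 6 or 3 times the higher library labelled sep1sep2sep3 as the limit, 87 and 159 with a minimum of 2 and 0.5 CPM, 148 with line 1 at least 3 times line 2, 113 with CPM after TMM, 116 without the clause on line 2 counts and 116 to 128 with each replicate left out, and it fell outside 1.5 times the main count only with line 1 at least 6 times line 2, at 74. Against sep1sep2, 2098 genes were DE in the libraries labelled sep1sep2sep3, with 4020 by FDR alone and 1376 to 2116 with each library left out, the lowest without the second library labelled sep1sep2sep3. In both lines 1601 were DE, with 3174 by FDR alone and 1062 to 1473 with a library left out, the lowest again without that library. For line 2 the count was 1265, and 2151 by FDR alone. Line 1 against line 2 gave 112 genes, 59 with DESeq2's size factors, 50 with filterByExpr and 181 to 263 with a library left out. The cause of these shifts was not tested. Replicates of sep1sep2 and sep1sep2sep3 share only a number (correlation of deviations -0.0855 over 18703 genes), and with the replicate block the counts were 2098 and 1576. Of the 35 alternative values of the 5 listed genes called between the lines, 32 kept the call and 3 lost it (ABCG26 and QRT3), and none changed direction. Of 329 values each, 321 kept the call for line 1, with losses in CYP98A9, HEC3 and SEP1, and 313 for line 2, with losses in EXL1, EXL5, HEC1, HEC3, MMD1, MS1, QRT1 and VGD1. With 1 library per line, counting depth does not bound the spread between plants of a line.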
